A study of Mus musculus with 12 samples.

Results

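The genes described here are the cytochrome P450 genes of the Cyp2a, Cyp2b, Cyp2c, Cyp2d, Cyp2j and Cyp3a subfamilies, the enzymes with which the liver oxidizes most drugs and many hormones and fatty acids. They were chosen by symbol, leaving out symbols that mark a pseudogene, and kept where at least 5 of the 12 libraries held 10 or more counts. Of the 46095 genes in the table, 50 had such a symbol and 40 were kept: 4 of 4 in Cyp2a, 3 of 5 in Cyp2b, 13 of 15 in Cyp2c, 9 of 9 in Cyp2d, 3 of 8 in Cyp2j and 8 of 9 in Cyp3a. All 40 also passed the low-count filter of the genome-wide fit, which tested 14666 genes. Just inside the minimum stood Cyp2b13 and Cyp2d12, each with 10 counts in 8 libraries. Just outside stood Cyp3a57, which reached 10 counts in 3 libraries with a highest count of 54, and Cyp2c65, which did so in 1 library with a highest count of 12. The other 8 genes left out, which were Cyp2b19, Cyp2b23, Cyp2c66, Cyp2j7, Cyp2j8, Cyp2j11, Cyp2j12 and Cyp2j13, reached at most 5 counts. RefSeq lists Cyp2d13 as a transcribed pseudogene although its symbol does not show it, and it stayed in by its symbol.

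RNA was sequenced from liver tumours, hepatocellular carcinomas that the carcinogen diethylnitrosamine (DEN) had induced in mice. The KO group has 7 libraries from Pck1-null mice, which lack the gluconeogenic enzyme phosphoenolpyruvate carboxykinase 1, and the WT group has 5 from wild-type mice. Every tumour had thus been induced with DEN, and no untreated liver is among the samples. The sources used here give neither strain, sex, age and DEN dose nor the way in which Pck1 was inactivated. Whether each tumour had its own animal is not stated either, and a p-value then reflects only how much these libraries vary, which may be technical.

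Microsomal P450 enzymes sit in the endoplasmic reticulum, hold a heme group and take electrons from P450 oxidoreductase (Por). Hepatocytes around the central vein carry most of the Cyp2a, Cyp2c and Cyp3a enzymes, and the receptors CAR (Nr1i3) and PXR (Nr1i2) raise Cyp2b, Cyp2c and Cyp3a genes when foreign compounds arrive. In rodents the pattern of growth hormone secretion sets many Cyp2 and Cyp3a genes to a female or a male level, so that enzymes such as Cyp2b9 and Cyp3a41 predominate in females and Cyp2d9 in males. The genes of a subfamily arose by tandem duplication and lie side by side. In GENCODE M21 (GRCm38, the mm10 assembly) the 7 Cyp2a and Cyp2b members spanned chr7:25897620-27037375, the 13 Cyp2c members chr19:39007019-44029208 and the 3 Cyp2j members chr4:96516138-96664154. The 8 Cyp2d members with a gene model spanned chr15:82370527-82794294 and the 8 Cyp3a members chr5:137892932-146113287.

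Levels are counts relative to library size (CPM), scaled for composition by TMM. Total counts fell into a shallower set of 7 libraries (17462102 to 23663506 counts, 4 KO and 3 WT) and a deeper set of 5 (43071365 to 46747125 counts, 3 KO and 2 WT). Pck1 itself lay between 111 and 1167 CPM in KO and between 1063 and 5822 CPM in WT, and 6 of the 7 KO libraries were below every WT library. Xist, which female cells express, was at 91.0 to 167 CPM in 5 KO libraries and 1 WT library and at most at 0.703 CPM in the other 6. The hepatocyte marker albumin lay between 31860 and 113000 CPM in KO and between 31610 and 140800 CPM in WT, so both groups held hepatocyte RNA throughout. KO replicate 5 stood apart: it held 1.26 CPM of Nr1i3, against 16.0 to 68.5 CPM in the other 11 libraries, and a sum of 4798 CPM over 8 cholangiocyte markers, against 106 to 1171 CPM. Of that sum Spp1 made up 4254 CPM; Pkhd1 was also highest there (125 CPM), but the keratins Krt19 (0.709 CPM) and Krt7 (1.595 CPM) were lower there than in most other libraries. KO replicates 1, 2 and 3 stood apart in 14 liver targets of beta-catenin outside these subfamilies, with sums of 13080 to 27420 CPM against 200 to 1767 CPM in the other KO libraries and 445 to 4694 CPM in WT. In tumour pieces like these, fewer cells of a type and less RNA per cell cannot be told apart.

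The 40 genes together held 0.33% to 1.87% of all counts. Their summed level was 18530, 13460, 9909, 4586, 3150, 7311 and 5293 CPM in KO replicates 1 to 7, and 9257, 13400, 12000, 12310 and 11930 CPM in WT replicates 1 to 5. The KO libraries reached both above and below the whole WT range, with 2 above it and 4 below it. Cyp2c genes made up 15.8% to 36.5% of the sum over the libraries and Cyp3a genes 8.88% to 34.9%. The Cyp2b genes held 0.0016% to 3.06% of it in KO and 0.902% to 4.55% in WT. In KO replicate 5 the largest share belonged to Cyp2d with 30.4%, and Cyp2j, which held 0.305% to 3.67% in every other library, took 11.1%.

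**Figure D1:**
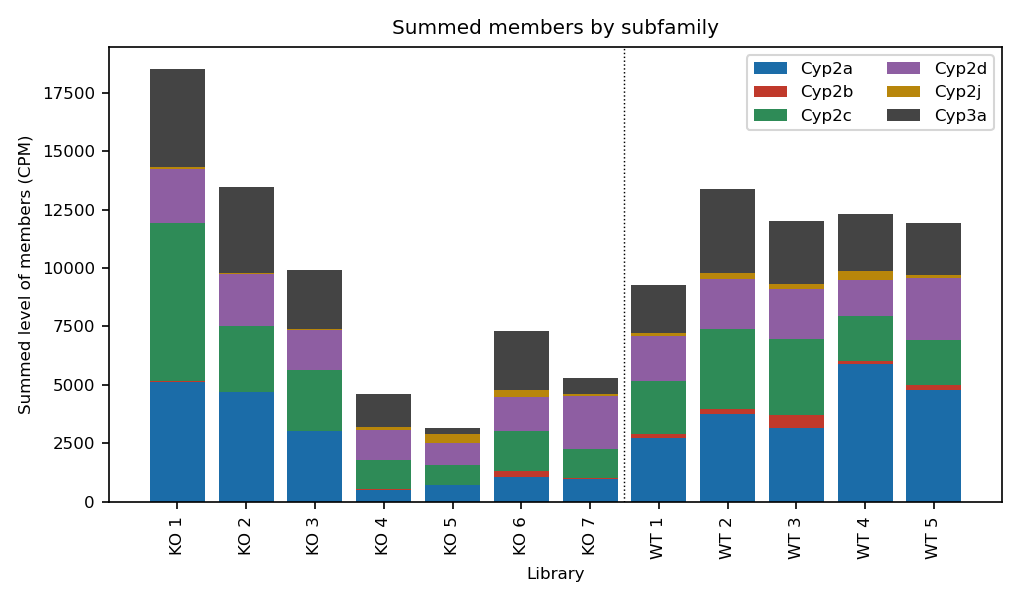
Stacked bars give the summed level of the 40 genes in CPM on the vertical axis for each library on the horizontal axis, split by subfamily, with KO left and WT right of the dotted line. KO libraries ran from 3150 to 18530 CPM and WT libraries from 9257 to 13400 CPM.

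Levels can be set against each other only per length, which was done as CPM per kilobase of annotated exon for the 39 genes with a gene model. By the median over WT libraries the order began with Cyp2a4 (1387 CPM per kilobase), Cyp2a5 (705), Cyp2d26 (534), Cyp3a11 (351) and Cyp2d10 (336). Over KO libraries it began with Cyp2d26 (393 CPM per kilobase), Cyp3a11 (315), Cyp2d10 (294), Cyp2a5 (288) and Cyp2a4 (186). By exon length the same 5 genes thus headed both orders, with Cyp2a4 at the head in WT and the last of the 5 in KO. The order depends on the length used: by 1 representative transcript, 2344 bases for Cyp3a11 in place of 5093 bases of exon, Cyp3a11 was at 685 CPM per kilobase in KO, the highest of all, and at 762 in WT, behind Cyp2a4. By transcript length Cyp2a4 stood 6th in KO, behind Cyp2c70 (200 CPM per kilobase). In WT Cyp2c29 (398 CPM per kilobase) then stood 5th and Cyp2d10 6th. By exon length Cyp2b10 stood 18th of 39 in WT at 61.2 CPM per kilobase and 35th in KO at 0.498. Among the 5 genes heading each order by exon length, neighbours had overlapping ranges over the libraries of the group.

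The question of the study was how loss of Pck1 changes DEN tumours. With edgeR's quasi-likelihood test and Benjamini-Hochberg adjustment over 14666 genes, 0 of the 40 genes passed an adjusted p of 0.05 in either direction, as did 0% of all genes tested. At an unadjusted p under 0.05, 8 of the 40 were lower in KO (Cyp2a4, Cyp2b10, Cyp2b13, Cyp2c40, Cyp2d12, Cyp2d22, Cyp3a25 and Cyp3a44) against 7.44% of all genes. At that p 1 gene, Cyp2c38, was higher, against 7.25% of all genes. With DESeq2, 1 of the 40 passed the adjusted threshold as lower in KO (Cyp3a44, adjusted p = 0.00954), against 1.64% of all genes, and 0 passed as higher, against 1.7%. At an unadjusted p under 0.05 DESeq2 had 7 lower, against 8.48% of all genes, and 2 higher, against 9.26%. With limma-voom and sample weights 8 passed as lower, against 8.18% of all genes, and 1 (Cyp2c38) as higher, against 6.4%. Without weights limma-voom called 0 of the 40 and, over all genes, 0.0273% lower and 0.00682% higher. At an unadjusted p under 0.05, limma-voom without weights had 9 lower, against 8.55% of all genes, and 0 higher, against 6.25%.

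The fitted log2 fold change, KO over WT, was negative for 27 of the 40 genes against 46.3% of all genes tested, and positive for 13. Its median was -0.33, against 0.03 over all genes tested. For 7 genes the fitted value and the plain difference of mean log2 CPM had opposite signs, the first following average counts and the second average logs: Cyp2a5, Cyp2a22, Cyp2c29, Cyp2c67, Cyp2c68, Cyp2d40 and Cyp2j9. Under at least 1 of the alternative fits the fitted sign turned for Cyp2a5, Cyp2b9, Cyp2c29, Cyp2d9, Cyp2d26, Cyp2j5, Cyp2j6, Cyp3a11 and Cyp3a16, among the 20 genes refitted. An exact two-sided permutation test of mean log2 CPM over the 792 regroupings of the libraries gave an unadjusted p under 0.05 for 8 genes, all lower in KO, against 7.08% of all genes tested in that direction and 6.64% in the other. After adjustment over all genes tested, 0 of them passed. In 7 of the 40 genes at least 5 of the 7 KO libraries lay below every WT library, against 7.54% of all genes, and in 1 gene, Cyp2b13, all 7 did, against 0.58% of all genes.

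**Figure D2:**
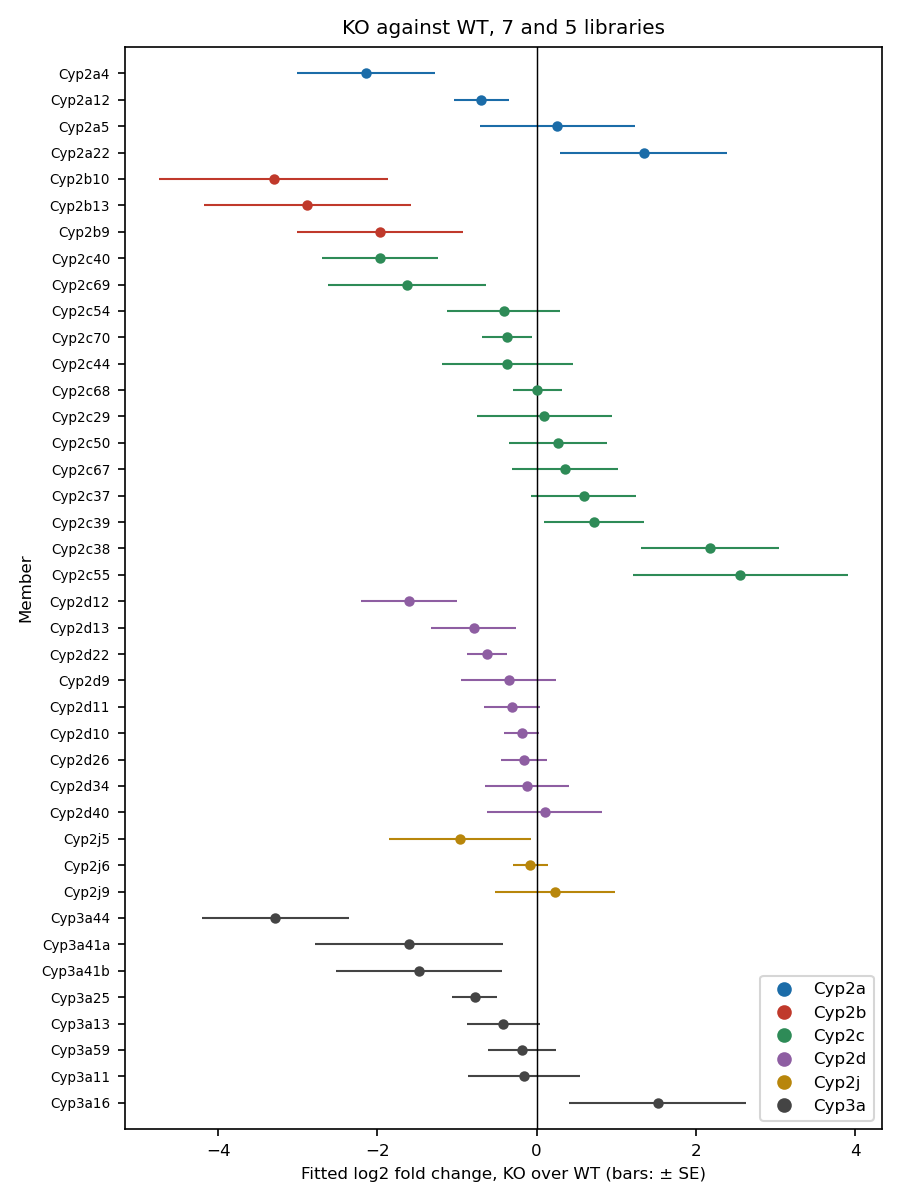
Each point is the fitted log2 fold change of 1 gene, KO over WT, on the horizontal axis, with a bar of ± 1 SE, and genes are ordered by subfamily on the vertical axis. The 3 Cyp2b genes and Cyp3a44 lie far left of 0, with Cyp2b10 at -3.30 and Cyp3a44 at -3.28, and the lowest Cyp2d gene is Cyp2d12 at -1.60.

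The levels of these genes spread widely between tumours. The SD of log2 CPM over the 12 libraries had a median of 1.43 over the 40 genes and 0.479 over all genes tested, and was above 1 in 28 of the 40 against 18.4% of all genes. Among genes with a mean log2 CPM over 5 the medians were 1.15 and 0.343. Other liver P450 genes spread as widely, with an SD of 2.27 for Cyp2e1, 2.54 for Cyp1a2 and 3.54 for Cyp2f2. KO replicate 5 was the lowest of the 12 libraries in 23 of the 40 genes, against 15.2% of all genes. It was the highest of the 12 in Cyp2c44, Cyp2j6 and Cyp2j9. KO replicate 1 was the highest library in 13 genes, against 9.67% of all genes.

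**Figure D3:**
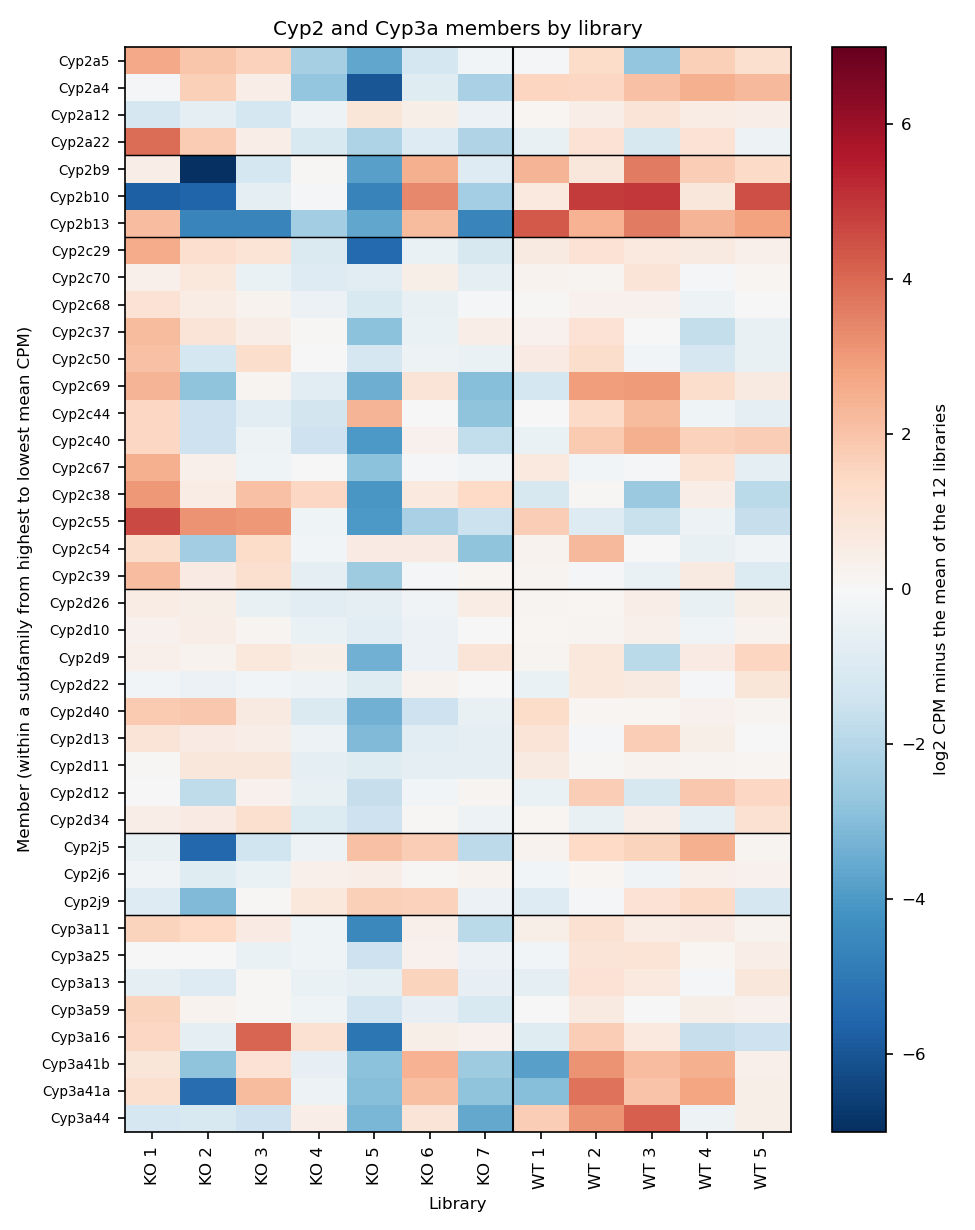
Colour gives the log2 CPM of a gene (vertical axis, by subfamily) in a library (horizontal axis) minus that gene's mean over the 12 libraries, from blue (lower) to red (higher). The column of KO replicate 5 is blue for most genes, and the rows of Cyp2b9, Cyp2b10 and Cyp2b13 are mostly blue in KO and red in WT.

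The Cyp2a genes encode hydroxylases of steroids and of coumarin and nicotine: Cyp2a5 is the mouse coumarin 7-hydroxylase and Cyp2a4 a testosterone 15-alpha-hydroxylase. Their coding sequences were 98.45% identical over 1482 bases, with 23 differences. Of the 50-base windows of the Cyp2a4 transcript, 38.0% also occurred in a transcript of another Cyp gene. The stretch shown, coding positions 580 to 669 counted from the A of the start codon, holds 5 of the differences in capitals (G603T, C607A, T625C, C655G and C669T, the Cyp2a5 base first). It was picked as the stretch of 90 bases with the most differences, so other stretches offer no more bases to separate reads of the pair. This bears on the counts that follow.
Cyp2a5: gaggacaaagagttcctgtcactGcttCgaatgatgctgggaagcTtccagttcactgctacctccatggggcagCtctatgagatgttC
Cyp2a4: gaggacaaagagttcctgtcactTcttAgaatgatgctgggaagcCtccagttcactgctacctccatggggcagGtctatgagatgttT

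The promoters of the pair, 250 bases before to 50 after the RefSeq start in GRCm38.p6, agreed in 294 of 299 aligned bases, with the 5 differing bases in capitals. They lie on the plus strand at chr7:26306942-26307241 for Cyp2a4 and at chr7:26835089-26835388 for Cyp2a5. They are shown because the 2 genes had different levels in the same tumours.
Cyp2a4: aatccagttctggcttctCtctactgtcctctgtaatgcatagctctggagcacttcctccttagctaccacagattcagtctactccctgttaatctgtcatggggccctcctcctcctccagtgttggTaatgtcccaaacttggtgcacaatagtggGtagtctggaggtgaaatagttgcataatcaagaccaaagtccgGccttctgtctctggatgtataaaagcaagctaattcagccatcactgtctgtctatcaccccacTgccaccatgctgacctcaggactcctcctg
Cyp2a5: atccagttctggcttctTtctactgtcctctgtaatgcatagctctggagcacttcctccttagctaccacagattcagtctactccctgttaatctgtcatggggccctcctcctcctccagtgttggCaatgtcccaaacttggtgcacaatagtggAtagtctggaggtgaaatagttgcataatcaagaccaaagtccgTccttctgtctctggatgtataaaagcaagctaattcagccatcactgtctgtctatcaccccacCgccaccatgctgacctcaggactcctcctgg

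Cyp2a4 was at 551, 1855, 807, 87.8, 9.17, 323 and 121 CPM in KO replicates 1 to 7, and at 1671, 1619, 2410, 3283 and 2825 CPM in WT replicates 1 to 5. The KO libraries except replicate 2 were below every WT library, and KO spanned a far wider range than WT. Mean log2 CPM was 7.79 ± 2.53 (SD, n = 7) in KO and 11.15 ± 0.45 (SD, n = 5) in WT. The fitted log2 fold change was -2.14 ± 0.87 (SE), with an adjusted p of 0.293 by edgeR and an exact permutation p of 0.0126 that became 0.270 on adjustment.

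Cyp2a5 was at 4296, 2563, 2042, 132, 54.0, 285 and 597 CPM in KO and at 643, 1617, 102, 2118 and 1461 CPM in WT. KO replicates 1 and 2 were above every WT library, and KO replicate 5 was below every one, so the groups overlapped throughout. The fitted log2 fold change was 0.26 ± 0.97 (SE, adjusted p = 0.920 by edgeR) while mean log2 CPM was lower in KO by 0.42. The difference of mean log2 CPM, KO minus WT, was 1.89 over the shallower libraries and -3.60 over the deeper ones. The shallower set holds KO replicates 1, 2 and 3, which also held the highest sums of beta-catenin targets.

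Cyp2a5 made up 88.6%, 58.0%, 71.7%, 60.1%, 85.5%, 46.9% and 83.1% of the counts of Cyp2a4 plus Cyp2a5 in KO replicates 1 to 7. In WT it made up 27.8%, 49.98%, 4.06%, 39.2% and 34.1%. The KO libraries other than replicate 6 were thus above every WT library. This share was looked at after the levels of both genes had been seen, and no test was run on it.

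Cyp2a12, a testosterone 7-alpha-hydroxylase, was at 149, 225, 149, 265, 628, 457 and 259 CPM in KO and at 384, 480, 644, 485 and 477 CPM in WT. Here 5 KO libraries were below every WT library, and KO replicate 5, lowest for most of the 40 genes, lay within the WT range. The fitted log2 fold change was -0.70 ± 0.35 (SE, adjusted p = 0.372 by edgeR), and the exact permutation p was 0.0391 before and 0.336 after adjustment. Cyp2a22, whose coding sequence was 96.95% identical to that of Cyp2a12, ran from 1.66 to 117 CPM in KO and from 3.51 to 15.7 CPM in WT. Across the 12 libraries the log2 CPM of these neighbours went in opposite directions (r = -0.53).

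The Cyp2b genes encode phenobarbital-inducible enzymes, of which Cyp2b10 is the standard readout of CAR and Cyp2b9 and Cyp2b13 are female-predominant. They were the subfamily in which every member was lower in KO by the fitted value. Of the 3, 2 were lower at an unadjusted p under 0.05, against 7.44% of all genes. Their summed level was 45.4, 0.215, 15.2, 34.6, 2.17, 223 and 15.7 CPM in KO and 184, 228, 546, 111 and 211 CPM in WT. The KO libraries other than replicate 6 were below every WT library.

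The promoters of the 3 genes are shown because the levels of the genes went together, with r between 0.63 and 0.81 over the 12 libraries. They lie on the plus strand at chr7:26173159-26173458 (Cyp2b9), chr7:26061245-26061544 (Cyp2b13) and chr7:25897408-25897707 (Cyp2b10) in GRCm38.p6, and capitals mark matches to the C/EBP-type motif TTGCNNAA on either strand. Those of Cyp2b9 and Cyp2b13 were identical in 298 of 300 bases, and that of Cyp2b10 matched each of them in 229 of 286 aligned bases.
Cyp2b9: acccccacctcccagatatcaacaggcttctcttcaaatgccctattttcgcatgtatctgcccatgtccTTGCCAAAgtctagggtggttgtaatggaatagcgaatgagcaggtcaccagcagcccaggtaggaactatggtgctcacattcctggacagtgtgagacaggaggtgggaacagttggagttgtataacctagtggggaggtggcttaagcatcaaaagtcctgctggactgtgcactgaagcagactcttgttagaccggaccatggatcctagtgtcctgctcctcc
Cyp2b13: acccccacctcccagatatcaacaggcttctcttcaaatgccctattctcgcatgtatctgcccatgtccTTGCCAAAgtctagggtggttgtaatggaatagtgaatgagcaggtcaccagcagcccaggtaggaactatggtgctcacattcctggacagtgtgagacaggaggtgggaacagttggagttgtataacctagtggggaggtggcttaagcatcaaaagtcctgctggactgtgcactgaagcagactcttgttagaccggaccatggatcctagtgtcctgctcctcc
Cyp2b10: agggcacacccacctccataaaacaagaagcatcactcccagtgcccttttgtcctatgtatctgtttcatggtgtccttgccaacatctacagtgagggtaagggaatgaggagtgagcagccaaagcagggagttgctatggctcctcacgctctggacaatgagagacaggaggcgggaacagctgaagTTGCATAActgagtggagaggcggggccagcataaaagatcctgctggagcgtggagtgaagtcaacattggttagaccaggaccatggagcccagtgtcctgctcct
The motif began 180 bases before the start in Cyp2b9 and Cyp2b13 and 58 bases before it in Cyp2b10. It was found in 11 of the 34 genes with a promoter in the RefSeq table (32.4%) and in 10.8% of all 32851 promoters of that length. A match describes these letters and is not a shown binding site. Cebpa, which encodes a liver C/EBP factor, ran from 150 to 313 CPM in KO and from 259 to 523 CPM in WT, with 6 KO libraries below every WT library and an adjusted p of 0.222 by edgeR.

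Cyp2b10 was at 0.0419, 0.0539, 3.47, 5.13, 0.155, 59.4 and 1.05 CPM in KO and at 9.22, 170, 175, 9.68 and 129 CPM in WT. In counts, the KO values of replicates 1 and 2 were 1 read each. All KO libraries but replicate 6 were below every WT library, and WT itself split into replicates 1 and 4 near 10 CPM and 3 libraries above 100 CPM. The fit gave a log2 fold change of -3.30 ± 1.44 (SE, adjusted p = 0.318 by edgeR), and the exact permutation p was 0.0152, or 0.276 after adjustment.

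Cyp2b13 was at 7.24, 0, 0, 0.232, 0.0665, 7.46 and 0 CPM in KO and at 31.4, 8.60, 20.1, 8.25 and 11.3 CPM in WT, with no overlap between the groups. Its fitted log2 fold change was -2.88 ± 1.30 (SE, adjusted p = 0.335 by edgeR), and the exact permutation p was 0.00253, where the smallest the design allows is 0.00126, and 0.230 after adjustment. Cyp2b9 was at 38.1, 0.162, 11.7, 29.2, 1.95, 157 and 14.6 CPM in KO and at 143, 49.2, 350, 93.1 and 70.7 CPM in WT, with 6 KO libraries below every WT library. Its fitted log2 fold change was -1.97 ± 1.04 (SE, adjusted p = 0.398 by edgeR), and 0.054 when only the deeper libraries, which hold KO replicate 6, were fitted. KO replicate 6, the highest KO library for all 3 genes, also had the highest sums of Kupffer cell markers (2100 CPM, against 249 to 474 CPM in the other KO libraries) and endothelial markers (574 CPM, against 150 to 297 CPM).

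**Figure D4:**
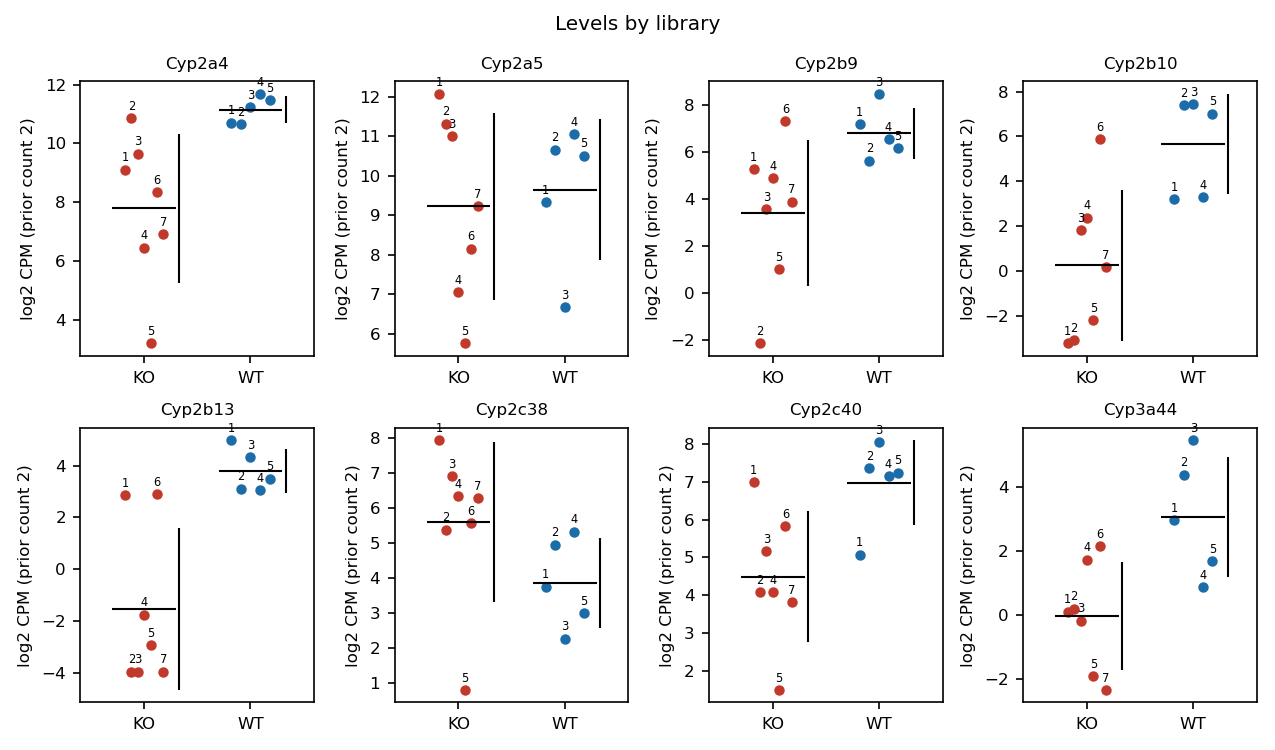
Log2 CPM with a prior count of 2 (vertical axis) of 8 genes in KO and WT (horizontal axis), with 1 point per library labelled by its replicate number, a horizontal line at the group mean and a vertical bar of ± 1 SD. For Cyp2b13 all 7 KO points lie below all 5 WT points, and for Cyp2c38 all KO points but replicate 5 lie above all WT points.

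The Cyp2c genes encode arachidonic acid epoxygenases and drug oxidases. As a subfamily they did not lean one way: 8 of 13 had a positive and 5 a negative fitted log2 fold change, with a median of 0.09. Single members differed widely, from -1.97 for Cyp2c40 to 2.56 for Cyp2c55. At an unadjusted p under 0.05, 1 was higher in KO, against 7.25% of all genes, and 1 lower, against 7.44%.

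Cyp2c29, the Cyp2c member with the highest mean CPM, though below Cyp2c70 per kilobase of exon, and a CAR-inducible enzyme of pericentral hepatocytes, was at 2770, 1031, 873, 222, 10.2, 323 and 209 CPM in KO and at 709, 917, 719, 708 and 586 CPM in WT. The WT values lay close together, and 2 KO libraries were above and 4 below all of them. Mean log2 CPM had an SD of 2.58 (n = 7) in KO and 0.23 (n = 5) in WT. The fitted log2 fold change of 0.09 ± 0.85 (SE, adjusted p = 0.967 by edgeR) stood beside a difference of mean log2 CPM of -1.15.

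Cyp2c38 was at 242, 41.2, 120, 80.3, 1.66, 46.9 and 77.0 CPM in KO and at 13.3, 30.6, 4.71, 39.7 and 7.82 CPM in WT. Of the 7 KO libraries, 6 were above every WT library, and KO replicate 5 was below every one. In the fit, the log2 fold change was 2.17 ± 0.87 (SE, adjusted p = 0.291 by edgeR), and the exact permutation p of 0.158 includes replicate 5. Cyp2c55, a PXR-responsive member, was at 299, 108 and 98.7 CPM in KO replicates 1, 2 and 3, at 0.687 to 9.59 CPM in the other 4 KO libraries and at 3.92 to 39.9 CPM in WT.

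Cyp2c40, which makes 16-HETE from arachidonic acid and is female-predominant, was at 126, 16.9, 36.0, 16.9, 2.77, 56.7 and 14.0 CPM in KO and at 33.7, 164, 262, 142 and 151.1 CPM in WT. All KO libraries were below the WT libraries other than replicate 1, and 4 were below that one too. Its fitted log2 fold change was -1.97 ± 0.73 (SE, adjusted p = 0.265 by edgeR), and the exact permutation p was 0.0215 before and 0.290 after adjustment. Its neighbour Cyp2c69 ran from 4.83 to 265 CPM in KO and from 22.2 to 415 CPM in WT and followed Cyp2c40 across libraries (r = 0.92). Reads of the pair may be shared, since 42.1% of the 50-base windows of Cyp2c40 recurred in Cyp2c69. In any other Cyp transcript, 72.1% recurred.

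The promoters of this pair are shown because they were identical in 267 of 270 aligned bases. They lie on the minus strand at chr19:39812765-39813064 (Cyp2c40) and chr19:39886720-39887019 (Cyp2c69) in GRCm38.p6, and capitals mark the HNF4A-type motif CAAAGTNCA, searched on both strands.
Cyp2c40: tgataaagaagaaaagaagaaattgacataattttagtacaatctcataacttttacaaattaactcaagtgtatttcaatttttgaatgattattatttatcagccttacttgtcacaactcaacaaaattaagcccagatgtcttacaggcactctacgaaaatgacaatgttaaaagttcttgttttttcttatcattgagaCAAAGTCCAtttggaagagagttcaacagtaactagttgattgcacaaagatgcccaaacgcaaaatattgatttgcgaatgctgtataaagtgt
Cyp2c69: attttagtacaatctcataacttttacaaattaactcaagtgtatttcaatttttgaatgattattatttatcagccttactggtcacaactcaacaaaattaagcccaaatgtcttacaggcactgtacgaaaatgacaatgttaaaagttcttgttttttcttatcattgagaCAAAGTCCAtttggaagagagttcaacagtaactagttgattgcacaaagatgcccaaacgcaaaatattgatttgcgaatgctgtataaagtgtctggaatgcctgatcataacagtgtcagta
CAAAGTNCA was in a promoter of 13 of the 34 genes with one in the table (38.2%, 7 of them in Cyp2c and 5 in Cyp3a). Over all 32851 promoters of that length, of which a gene can have several, the share was 1.41%. Its stricter form CAAAGTCCA, which is contained in it, was in 9 genes (26.5%) against 0.47%. TATAAA, on the plus strand, was in 17 genes against 8.32% of promoters, and the STAT5-type TTCNNNGAA in 0 against 8.3%, where no match says only that these letters are not in the window. Tandem copies share promoter letters by descent, so these counts are not of independent genes. Hnf4a itself lay between 438 and 895 CPM in KO, highest in replicate 5, and between 472 and 707 CPM in WT.

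The other Cyp2c members overlapped between groups. Cyp2c70, a bile acid hydroxylase, ran from 252 to 781 CPM in KO and from 442 to 870 CPM in WT, and Cyp2c68 from 116 to 488 CPM and from 191 to 305 CPM. Cyp2c37, Cyp2c50 and Cyp2c54, epoxygenases of pericentral hepatocytes, had KO medians of 236, 131 and 45.1 CPM and WT medians of 176, 142 and 30.7 CPM. Cyp2c44 was at 315 CPM in KO replicate 5, its highest library, and at 8.46 to 162 CPM in the other KO libraries. Cyp2c67 and Cyp2c39 had KO medians of 43.9 and 3.99 CPM and WT medians of 42.2 and 3.26 CPM.

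The Cyp2d genes, mouse relatives of the human debrisoquine hydroxylase CYP2D6, were the steadiest abundant subfamily. Their summed level was 958 to 2316 CPM in KO and 1507 to 2644 CPM in WT. Of 9 members, 8 had a negative fitted log2 fold change, with a median of -0.31. At an unadjusted p under 0.05, 2 were lower in KO, against 7.44% of all genes. Cyp2d26, the most abundant, was at 1202, 1114, 570, 487, 541, 705 and 1176 CPM in KO and at 957, 892, 1129, 570 and 1077 CPM in WT, with full overlap and a fitted log2 fold change of -0.16 ± 0.29 (SE, adjusted p = 0.822 by edgeR). Cyp2d10 had the lowest SD of log2 CPM of the 40 genes, 0.375 over the 12 libraries.

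Cyp2d22, which is often set beside human CYP2D6, was at 163, 141, 164, 143, 101.0, 221 and 190 CPM in KO and at 132, 311, 286, 170 and 338 CPM in WT. The KO libraries other than replicate 5 lay within the WT range. KO over WT, the fitted log2 value was -0.63 ± 0.25 (SE, adjusted p = 0.293 by edgeR). Cyp2d12 was near the detection limit, at 0.108 to 0.674 CPM in KO and 0.211 to 2.15 CPM in WT, with a fitted log2 fold change of -1.60 ± 0.60 (SE, adjusted p = 0.270 by edgeR) that rests on 2 to 84 counts a library.

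Cyp2d9, the male-predominant testosterone 16-alpha-hydroxylase, was at 277, 248, 362, 279, 20.5, 160 and 392.4 CPM in KO and at 239, 362, 58.3, 315 and 611 CPM in WT. Each group held 1 library far below its others, KO replicate 5 and WT replicate 3. The fit gave a log2 fold change of -0.35 ± 0.60 (SE, adjusted p = 0.806 by edgeR). The remaining Cyp2d members were lower-level genes, with KO medians of 0.625 to 12.3 CPM and WT medians of 0.640 to 20.3 CPM for Cyp2d11, Cyp2d13, Cyp2d34 and Cyp2d40.

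The Cyp2j genes encode epoxygenases of arachidonic acid. Cyp2j5, which the liver shares with the kidney, was at 39.9, 1.24, 21.9, 45.5, 245, 189 and 16.2 CPM in KO and at 67.9, 150, 172, 322 and 67.1 CPM in WT. The KO libraries other than replicates 5 and 6 were below every WT library. In the fit, the log2 fold change was -0.96 ± 0.89 (SE, adjusted p = 0.623 by edgeR), and the difference of mean log2 CPM was -3.73 over the shallower libraries and 0.35 over the deeper ones. Cyp2j6 varied little, from 39.8 to 101.2 CPM in KO and from 60.8 to 92.2 CPM in WT, with a fitted log2 fold change of -0.08 ± 0.22 (SE, adjusted p = 0.895 by edgeR). Cyp2j9 was between 0.0539 and 3.10 CPM in all libraries.

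The Cyp3a genes encode the broad-range monooxygenases that PXR controls, and 7 of 8 had a negative fitted log2 fold change, with a median of -0.60. Cyp3a11, the main mouse counterpart of human CYP3A4, was at 3691, 3283, 1883, 1012, 54.3, 1606 and 340 CPM in KO and at 1670, 2608, 1786, 1897 and 1492 CPM in WT. KO replicates 1 and 2 were above every WT library, and replicates 4, 5 and 7 were below every one. Its fitted log2 fold change was -0.16 ± 0.70 (SE, adjusted p = 0.933 by edgeR). Across the 12 libraries Cyp3a11 followed Cyp2c29 more closely than any other pair of these genes did (r = 0.960), although they lie on different chromosomes.

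Cyp3a25 was at 233, 235, 171, 189, 86.5, 293 and 177 CPM in KO and at 209, 443, 449, 263 and 331 CPM in WT. Of the KO libraries, 4 were below every WT library and none was above them all. KO over WT, the fitted log2 value was -0.78 ± 0.28 (SE, adjusted p = 0.251 by edgeR), and the exact permutation p was 0.0227 before and 0.292 after adjustment. Cyp3a13 ran from 103 to 579 CPM in KO and from 119 to 394 CPM in WT, and Cyp3a59 from 13.3 to 99.98 CPM and from 32.7 to 52.4 CPM.

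Cyp3a44, a female-specific member, was at 1.004, 1.08, 0.819, 3.25, 0.199, 4.38 and 0.132 CPM in KO and at 7.68, 20.8, 43.8, 1.76 and 3.12 CPM in WT. WT replicates 1, 2 and 3 were above all KO libraries, while WT replicates 4 and 5 lay among the highest KO libraries. The fit gave a log2 fold change of -3.28 ± 0.92 (SE, adjusted p = 0.208 by edgeR and 0.00954 by DESeq2), and the exact permutation p was 0.0139 before and 0.273 after adjustment. It had the smallest edgeR p of the 40 genes. In counts, it held 24, 20, 17, 182, 9, 203 and 3 reads in KO replicates 1 to 7 and 37 to 912 in WT. Of the 50-base windows of Cyp3a44, 26.45% recurred in other Cyp transcripts.

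Cyp3a41a, also female-specific, was at 5.61, 0, 12.2, 2.001, 0.266, 11.3 and 0.307 CPM in KO and at 0.267, 36.9, 10.5, 17.8 and 3.35 CPM in WT. Its copy Cyp3a41b differed from it in 2 of 1512 coding bases (G120A and G336T, the Cyp3a41a base first). Of the 50-base windows of Cyp3a41a, 98.6% recurred in other Cyp transcripts. Counts of this pair thus cannot be assigned to 1 copy. The groups overlapped for both, with a fitted log2 fold change of -1.60 ± 1.18 (SE, adjusted p = 0.533 by edgeR) for Cyp3a41a. Cyp3a16 was at 32.5, 7.59, 198, 25.1, 0.288, 15.6 and 14.3 CPM in KO and at 6.56, 39.5, 18.8, 3.77 and 4.23 CPM in WT, with a fitted log2 fold change of 1.52 ± 1.12 (SE, adjusted p = 0.533 by edgeR) that was 0.13 without KO replicate 3.

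By known regulation, the 12 female-predominant genes had 9 negative and 3 positive fitted log2 fold changes with a median of -1.80, beside a median of 0.03 and 46.3% negative over all genes tested. An unadjusted p under 0.05 was reached by 5 of the 12 as lower (7.44% of all genes) and by 1 as higher (7.25%), and 0 passed adjustment. Their summed level was 22.4 to 1935 CPM in KO and 1943 to 3748 CPM in WT. Cyp2a4 alone held 1855 of the 1935 CPM in KO replicate 2 and 1671 of the 1943 CPM in WT replicate 1. The gap between the groups in this sum thus rests on Cyp2a4 and is not a trait of the whole list. Of 10 male-predominant liver genes, 6 were tested, and all 6 also had a negative fitted value, with a median of -2.12. Of these 6, 4 were lower at an unadjusted p under 0.05 by edgeR, against 7.44% of all genes. The unadjusted exact permutation p of these 4 was 0.150 for Cyp4a12a, 0.148 for Cyp4a12b, 0.179 for Cyp7b1 and 0.110 for Mup20. The fatty acid hydroxylase Cyp4a12a ran from 0.0222 to 5.89 CPM in KO and from 0.0533 to 106 CPM in WT. Female-predominant genes outside these subfamilies, 7 in all, had 4 negative and 3 positive values with a median of -0.59, and 0 had an unadjusted p under 0.05.

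Xist moved with genotype, since 5 of 7 KO libraries and 1 of 5 WT libraries were high in it. The female-predominant genes Cyp2a4, Cyp2b9, Cyp2b13, Cyp3a44 and Cyp3a16 each kept their sign in both Xist classes, and only Cyp3a16 was positive. Among Xist-high libraries (5 KO, 1 WT) the difference of mean log2 CPM, KO minus WT, was -3.45 for Cyp2a4, -3.55 for Cyp2b9, -4.07 for Cyp2b13, -0.80 for Cyp3a44 and 1.67 for Cyp3a16. Among Xist-low libraries (2 KO, 4 WT) it was -4.33 for Cyp2a4, -2.47 for Cyp2b9, -6.83 for Cyp2b13, -3.92 for Cyp3a44 and 0.66 for Cyp3a16. Single libraries overlapped within a class: KO replicate 6 held more Cyp2b9 (157 CPM) than WT replicate 4 (93.1 CPM), the only Xist-high WT library. Cyp2c38 differed by -0.01 among Xist-high and by 2.82 among Xist-low libraries, and Cyp2c39 by -0.35 and 0.08. With 1 WT library in one class and 2 KO libraries in the other, these are values without a test.

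Of the pericentral genes Cyp2a5, Cyp2c29, Cyp2c37, Cyp2c50, Cyp2c54 and Cyp3a11, 4 had positive and 2 negative fitted values, with a median of 0.18. Their sum was 12290, 7274 and 5495 CPM in KO replicates 1, 2 and 3, 260 to 2515 CPM in the other 4 KO libraries and 2956 to 6024 CPM in WT. The same 3 libraries held 9407 to 15900 CPM of glutamine synthetase (Glul), a pericentral enzyme and beta-catenin target, against 31.7 to 555 CPM in the other KO libraries. Cyp2e1, a pericentral P450 outside these subfamilies, was at 7251 to 7981 CPM in them, at 30.9 to 2328 CPM in the other KO libraries and at 375 to 2578 CPM in WT. The part of these targets in the differences between libraries was not tested. Of the 9 CAR- and PXR-induced genes, 5 had positive and 4 negative values, with a median of 0.09.

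Of 24 genes for receptors and transcription factors that act on P450 genes, 10 had positive and 14 negative fitted values. At an unadjusted p under 0.05, 2 were higher (Ahr and Foxa1), against 7.25% of all genes, and 1 lower (Cebpa), against 7.44%. The aryl hydrocarbon receptor Ahr was at 34.7 to 99.5 CPM in KO and at 23.2 to 64.6 CPM in WT (adjusted p = 0.235 by edgeR). PXR, Nr1i2, was at 47.2 to 88.8 CPM in KO and at 58.4 to 109 CPM in WT (adjusted p = 0.353 by edgeR). CAR, Nr1i3, overlapped between groups, with KO replicate 5 at 1.26 CPM.

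Over all 12 libraries, 6 relations between a target and its receptor were computed on log2 CPM, with 100000 permutations each and adjustment over the 6. Cyp2c29 went with Nr1i3 (r = 0.885, permutation p = 0.00606, adjusted 0.0364; rho = 0.692, permutation p = 0.0148, adjusted 0.0452). Without the 2 libraries farthest from the median of Nr1i3, KO replicates 5 and 6, r was 0.378, and among the shallower libraries it was 0.259, so the relation rests on those libraries. Cyp3a11 behaved alike, with r = 0.810 (permutation p = 0.0254, adjusted 0.0382; rho = 0.566, permutation p = 0.0587, adjusted 0.117), 0.179 without the same 2 libraries and 0.102 among the shallower libraries. Cyp2b10 did not follow Nr1i3 (r = 0.162, permutation p = 0.667; rho = -0.231, permutation p = 0.471).

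With Nr1i2, Cyp2b10 had r = 0.702 (permutation p = 0.0127, adjusted 0.0374; rho = 0.692, permutation p = 0.0151, adjusted 0.0452), which was 0.557 without KO replicate 5 and WT replicate 2, 0.412 within KO and 0.407 among the shallower libraries. Cyp3a11 had r = 0.637 (permutation p = 0.0187, adjusted 0.0374; rho = 0.448, permutation p = 0.148, adjusted 0.203) and 0.312 without those 2 libraries. Cyp2c29 had r = 0.597 (permutation p = 0.0333, adjusted 0.0400; rho = 0.427, permutation p = 0.169, adjusted 0.203) and 0.236 without them. None of the 6 relations passed after adjustment within KO or within the shallower libraries, which number 7 each.

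Of 6 genes for partners of P450 enzymes, which were electron donors and membrane heme proteins, 4 had positive and 2 negative fitted values. Of these, 1, the membrane heme protein Pgrmc2, was lower at an unadjusted p under 0.05, against 7.44% of all genes. Pgrmc2 was at 56.7 to 68.3 CPM in KO and at 69.1 to 118 CPM in WT, with no overlap. All KO libraries lay below all WT libraries in 0.58% of all genes tested. Its log2 fold change was -0.39 ± 0.14 (SE, adjusted p = 0.248 by edgeR), and its exact permutation p was 0.00126, the smallest the design allows, or 0.230 after adjustment. Por ran from 322 to 1551 CPM in KO and from 374 to 1296 CPM in WT (adjusted p = 0.597 by edgeR). Of 12 genes of heme synthesis and breakdown, 7 were positive and 5 negative, and 0 had an unadjusted p under 0.05. Of 20 tested P450 genes of families 1, 2 and 4 outside these subfamilies, 7 were positive and 13 negative, and 1 higher and 4 lower genes had an unadjusted p under 0.05, against 7.25% and 7.44% of all genes. The one higher gene, the fatty acid hydroxylase Cyp4a31, was at 19.1 to 148 CPM in KO and at 8.40 to 29.8 CPM in WT, with 6 KO libraries above every WT library and a log2 fold change of 2.49 ± 0.48 (SE, adjusted p = 0.170 by edgeR). Among the lower ones Cyp2f2, a periportal P450, was at 0.837 to 254 CPM in KO and at 79.3 to 1441 CPM in WT (adjusted p = 0.224 by edgeR). Of 34 tested genes of conjugation and other drug metabolism, 13 were positive and 21 negative, with 0 higher and 6 lower at such a p (7.25% and 7.44% of all genes). Among them the glucuronosyltransferases Ugt2b1 and Ugt2a3 were lower in all 7 KO than in all 5 WT libraries, as were 0.58% of all genes (adjusted p = 0.211 and 0.218 by edgeR).

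Among the marker lists of other cells, 0 genes passed the adjusted threshold of edgeR, as did 0% of all genes tested. All 8 endothelial markers had negative fitted values, with sums of 150 to 574 CPM in KO and 359 to 540 CPM in WT. At an unadjusted p under 0.05, 3 of them were lower, against 7.44% of all genes. All 7 tested neutrophil markers had positive fitted values and were higher at such a p, against 7.25% of all genes. The neutrophil sums were 1132, 164 and 288 CPM in KO replicates 3, 4 and 6, 24.6 to 29.5 CPM in the other KO libraries and 18 to 37.9 CPM in WT. Of the Kupffer cell and hepatocyte markers 1 each was lower at such a p. Kupffer cell markers summed to 249 to 2100 CPM in KO and 443 to 1267 CPM in WT, and the 7 hepatocyte markers found to 60420 to 156700 CPM and 57560 to 206900 CPM. Their part in the lower Cyp2b, Cyp2a4 and Cyp3a44 values in KO was not tested.

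Similar sequence did not by itself go with similar levels. Pairs within a subfamily had a median r of 0.50 over 154 pairs, from -0.57 to 0.95, and pairs between subfamilies a median of 0.31 over 626 pairs. These coefficients are over the same 12 libraries, of which KO replicate 5 was the lowest for most genes. Near-identical Cyp3a41a and Cyp3a41b had r = 0.95, but Cyp2a4 and Cyp2a5, at 98.45% identity, had r = 0.62, and Cyp2a12 and Cyp2a22, at 96.95%, had r = -0.53. The lowest coefficient of all pairs was that of Cyp2a12 with Cyp2c38 (r = -0.83). Cyp2c44, Cyp2c70, Cyp2j9 and Cyp3a13 were the members with no 50-base window in common with a transcript of another Cyp gene. Transcripts of other genes were not searched, and Cyp2d13, without a gene model, was left out.

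**Figure D5:**
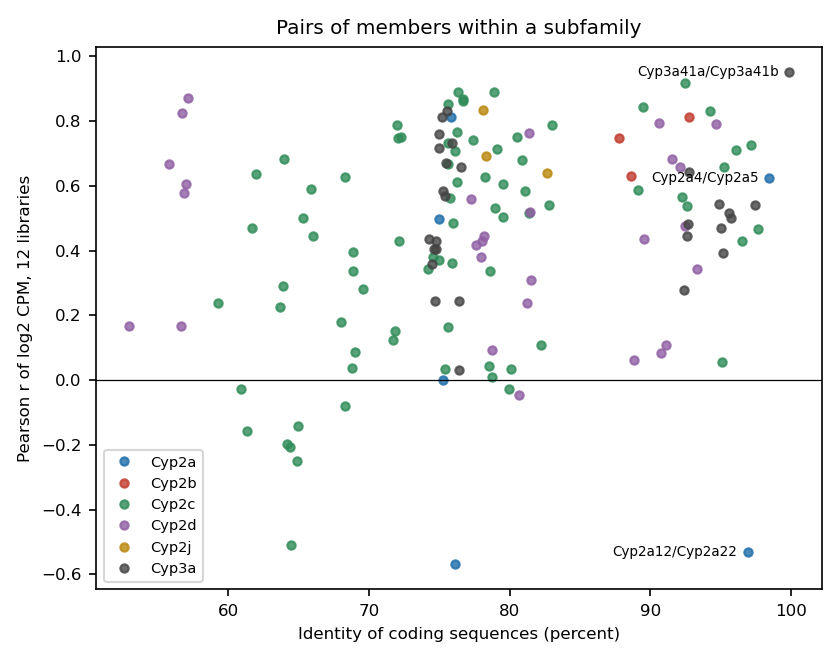
Each point is a pair of genes of 1 subfamily, with the identity of their coding sequences in percent on the horizontal axis and the Pearson r of their log2 CPM over 12 libraries on the vertical axis. Cyp3a41a with Cyp3a41b lies top right at 99.87% identity and r = 0.95, and Cyp2a12 with Cyp2a22 lies at 96.95% identity and r = -0.53.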

How the data were processed

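RNA sequencing read counts per gene were analysed for 12 DEN-induced liver tumours, 7 Pck1-null and 5 wild-type. The deposited table holds raw counts as whole numbers, not normalized. Per the labels' protocols, Trizol RNA with an integrity number above 8.0 was used. Reads were aligned with HISAT2 to mm10, per the submitters' processing notes. No source used here names the counting program, the strand setting or the annotation, and reads of near-identical copies and of overlapping genes cannot be told apart. The genotype label set the groups, and replicates were numbered in accession order. The members, the gene lists and the tests were chosen with earlier results of these data known. Libraries of a group all differed by more than sampling noise (smallest chi-square per degree of freedom 80.9).

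Genes were kept by filterByExpr (minimum count 10, minimum total 15), which left 14666 genes with 99.9% of counts, and tested with edgeR 4.0.16 (R 4.3.3, TMM, robust quasi-likelihood F-test, no covariate, Benjamini-Hochberg over all genes tested, threshold 0.05). Common dispersion gave a biological coefficient of variation of 0.492. The SE is the log2 fold change divided by the root of F, and log2 CPM used a prior count of 2. Per-library values were printed for the most abundant member of each subfamily, the 2 members of it with the smallest p and 9 members picked by role. From each other list up to 4 genes with the smallest p could be named, beside Pck1, Xist, Nr1i3, Nr1i2, Por, Cyp2e1 and Cyp1a2; albumin, Glul and Hnf4a were named after their values were seen. The 16 lists held 198 entries, of which 188 were tested. Alternatives were DESeq2 1.42.0, limma 3.58.1, other scalings and filters, covariates for Xist class (over 10 CPM) and for depth (shallower or deeper), these subsets alone and each library left out in turn. Promoters came from the RefSeq table of GRCm38.p6, which held 34 of the 40 genes, and gene models and transcripts from GENCODE M21. Coding sequences were aligned pairwise with Biopython 1.88.

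On simulated data for the comparison of KO with WT (14471 genes, 200 changed), edgeR called 40 of the 50 genes that had been raised 4-fold and 36 of the 50 lowered as much. At 2-fold it called 13 raised and 18 lowered genes of 50 each, beside 3 genes without a change. DESeq2 called 44 raised and 40 lowered genes at 4-fold and 29 and 26 at 2-fold, beside 38 genes without a change. Limma-voom with sample weights called 36 and 39 at 4-fold and 14 and 19 at 2-fold, beside 4 such genes. The changed genes were drawn at random from all genes above a minimum level, not from the Cyp genes described here. Those genes spread more widely, with a median SD of log2 CPM of 1.43 against 0.479 over all genes tested. The simulated shares thus do not carry over to them.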

Additional observations from a re-analysis of the deposited data

Results flagged for a closer look

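In 2 of 40 groups looked at (the 20 genes with per-library values, in KO and in WT), 1 library stood apart from the others by more than Dixon's limit for its group size, and chance alone flags about 1 group in 20. Cyp2c38 was at 1.66 CPM in KO replicate 5, where the nearest KO library was at 41.2 CPM. Cyp2d9, the male-predominant testosterone hydroxylase, was at 20.5 CPM in the same library, where the nearest was at 160 CPM. Both are the library with 1.26 CPM of Nr1i3 and the highest Spp1 (4254 CPM), and the part of either in these values was not tested.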

How the results depend on the processing

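No paired analysis was possible because the replicate numbers are in accession order and pair nothing. Over all genes, edgeR called 0 higher and 0 lower in KO. DESeq2 called 249 higher and 241 lower, limma-voom with sample weights 938 and 1200, limma-voom without weights (added after seeing the data) 1 and 4, and the depth covariate 1 and 2. Lower calls were 2 in the deeper libraries alone and 1 each with a filter of 1 CPM in 5 libraries, without a filter and with upper-quartile scaling. Leaving out 1 library gave 0 to 14 higher and 0 to 51 lower calls, with both maxima without KO replicate 6. Of the 40 genes, DESeq2 called 1 lower, limma-voom with weights 1 higher and 8 lower, and leaving out 1 library 0 to 0 in each direction. Members with an exact permutation p under 0.05 numbered 8, and 5 to 10 with 1 library left out (5 without WT replicate 3).

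Of 479 refits of 20 genes, 444 kept the direction and the side of the threshold, 10 passed it anew, 0 lost it and 25 changed sign. No sign changed for 11 of the 20 genes. The sign of Cyp2a5 turned with the Xist covariate (-0.97), in the deeper libraries (-3.30), with the depth covariate (-0.78) and with limma-voom with weights (-0.38) and without (-0.067). That of Cyp2c29 turned in the same 5 settings (-1.03, -2.02, -0.46, -0.72 and -0.97). In the deeper libraries Cyp2b9 (0.054), Cyp2j5 (0.54), Cyp2j6 (0.094) and Cyp3a16 (-0.68) turned, in the shallower Cyp2d26 (0.19), Cyp2d9 (0.64) and Cyp3a11 (0.36), and with the Xist covariate Cyp2d26 (0.013). With 1 library left out, log2 fold changes ran from -0.33 to 0.57 for Cyp2a5, from -0.71 to 0.31 for Cyp2c29, from -0.61 to 0.030 for Cyp2d9, from -0.17 to 0.028 for Cyp2j6 and from -0.47 to 0.058 for Cyp3a11. The cause of these turns was not tested. By the length of 1 transcript (added after seeing the data), median CPM per kilobase moved beyond 1 SD for Cyp3a11 (685 in KO, 762 in WT) and Cyp2c29 (398 in WT) among the 7 genes recomputed.

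For the relations Cyp2b10 with Nr1i3, Cyp2b10 with Nr1i2, Cyp2c29 with Nr1i3, Cyp2c29 with Nr1i2, Cyp3a11 with Nr1i3 and Cyp3a11 with Nr1i2, r was -0.00716, 0.412, 0.902, 0.729, 0.824 and 0.768 within KO and -0.377, 0.407, 0.259, 0.355, 0.102 and 0.368 within the shallower libraries. With 1 library left out they ran from -0.484 to 0.316, 0.635 to 0.824, 0.472 to 0.944, 0.284 to 0.654, 0.146 to 0.946 and 0.381 to 0.697. Without KO replicate 5, r was at the lowest of these for each relation other than Cyp2b10 with Nr1i2 (0.641). Low counts limit Cyp2b10, Cyp2b13, Cyp2d12 and Cyp3a41a, each under 10 counts in 3 or 4 libraries. For Cyp2b10, Cyp2b13 and Cyp2d12 these include KO replicate 5, of the deeper set, with 7, 3 and 6 counts.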

Other observations

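Pseudogene symbols of the same subfamilies had 7 rows that passed the count minimum. Cyp2d41-ps was at 115 CPM in KO replicate 3, 39.0 in replicate 1 and 20.7 in replicate 2, at 0.222 to 5.02 CPM in the other KO libraries and at 0.281 to 16.2 CPM in WT. It shared 13.4% of the 50-base windows of Cyp2d40. Cyp2a21-ps was at 27.6, 15.1 and 11.5 CPM in the same 3 libraries, at 0.222 to 3.68 CPM in the other KO libraries and at 1.69 to 15.9 CPM in WT. Cyp2d36-ps was at 22.6 CPM and Cyp2d37-ps at 27.3 CPM in WT replicate 3, the library in which Cyp2d9 was at 58.3 CPM, the lowest WT level of that gene.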
